A study of Mus musculus with 4 samples.

Results

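The cap'n'collar (CNC) transcription factors Nfe2l1, Nfe2l2, Nfe2l3, Bach1 and Bach2 were followed with their small Maf partners Maff, Mafg and Mafk and with Keap1, in polyadenylated RNA of mouse muscle satellite cells in culture. Satellite cells are the resident stem cells of muscle tissue. In these cultures Pax7, their defining factor, had 0.625 to 1.40 FPKM, while Myog, a factor of differentiating myoblasts, had 2793 to 4196 FPKM. The set holds 9 genes of the 54446 in the deposited table, each found once by its symbol. Nfe2l1 was chosen by its higher FPKM in the knockdown libraries, and the other 8 genes follow from its family and partners, so the contrast between the groups describes Nfe2l1 and does not test it.

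There were 4 libraries. In 2 of them cells of C57BL/6 hindlimb muscle, grown in F10 medium with 10% HS, had received siRNA against the long non-coding RNA LncMyoD and were harvested after 48 h. In the other 2 the same kind of cells had received control siRNA by title, description and treatment tag, although the treatment text of these samples also names LncMyoD. The table had 0 rows named LncMyoD, so how far the target was lowered was not analysed here. Separate cultures or animals are not stated for the replicates, and p-values then cover only the spread among these libraries, which could be technical.

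CNC factors are basic leucine zipper proteins that bind DNA as dimers with a small Maf protein, which has no activation domain of its own. NFE2L2 (NRF2) drives antioxidant and detoxification genes through the antioxidant response element, and KEAP1 holds its protein level low by handing it to a CUL3 ubiquitin ligase until oxidants or electrophiles modify KEAP1. NFE2L1 (NRF1) is made at the endoplasmic reticulum, is extracted, deglycosylated and cleaved when proteasomes fall short, and then raises proteasome genes, while BACH1 and BACH2 compete for the same elements as repressors and BACH1 is released by heme. Much of this control acts on the proteins, which transcript levels do not show.

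The sequences around the start sites are given first, because several of these genes are known to be driven through the element that their own products bind. In the 250 bases before each RefSeq start (GRCm38.p6), the core TGACNNNGC was searched on both strands. It was found in 4 of the 9 genes, Nfe2l2, Mafk, Mafg and Maff, against 11.5% of 27025 genes with such a window. Counted per window, 10.2% of all 32851 held it. A gene with more windows has more chances of a match, and the 9 genes had 15 windows, 5 of them of Nfe2l1. The single form TGACTCAGC, 1 of the sequences that the core covers, was in 0.426% of genes and in none of these windows. The matches are printed on the strand of the gene with the core in capitals; in Mafk and Mafg it lies on the opposite strand and so reads as its reverse complement.
Nfe2l2 (chr2:75704879-75704913, minus strand): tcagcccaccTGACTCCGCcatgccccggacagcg
Mafk (chr5:139791507-139791535, plus strand): acgcgcgatcccggaaGCGGTGTCAgtac
Mafg (chr11:120633745-120633785, minus strand): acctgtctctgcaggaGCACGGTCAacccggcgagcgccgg
Maff (chr15:79346493-79346533, plus strand): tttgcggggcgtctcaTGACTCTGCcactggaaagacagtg

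Nfe2l1 has 5 RefSeq start windows, and none held the core. The window before its outermost start is shown because Nfe2l1 carries the difference between the groups described next. It holds 4 copies of CCAAT on either strand, here in capitals as the reverse complement ATTGG. Of 32851 windows, 33.8% held at least 1 copy and 0.840% held 4 or more, counted per window and not per gene. Another window of Nfe2l1, chr11:96824128-96824377, holds more copies than the one shown. This motif was looked for after the sequence had been seen. A match is a run of letters and does not show binding.
Nfe2l1 (chr11:96829969-96830218, minus strand): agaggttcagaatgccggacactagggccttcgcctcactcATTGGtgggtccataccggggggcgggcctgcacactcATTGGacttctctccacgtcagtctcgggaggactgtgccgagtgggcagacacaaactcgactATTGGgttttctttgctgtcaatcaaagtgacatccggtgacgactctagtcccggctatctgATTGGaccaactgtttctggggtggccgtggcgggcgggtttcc

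Nfe2l1 (ENSMUSG00000038615), on the minus strand of chromosome 11 from 96817414 to 96829968, had 13.0 and 17.7 FPKM in knockdown replicates 1 and 2, against 2.28 and 2.56 FPKM in control replicates 1 and 2. FPKM is a fragment count scaled to transcript length and to the fragments mapped in the library. Both knockdown libraries lay far above both controls, and the groups did not overlap. The mean was 15.3 ± 3.35 FPKM in knockdown and 2.42 ± 0.198 FPKM in control (SD, n = 2 each), a 6.33-fold ratio of the means. On the log2(FPKM + 1) scale the difference, knockdown minus control, was 2.24 ± 0.21 (SE), the 7th highest of 10900 rows tested.

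In limma's test with Benjamini-Hochberg adjustment over these rows, 6 passed, which is 0.0550% of all, with 1 higher (0.00917%) and 5 lower (0.0459%). Nfe2l1 was not among them. Leaving out each library in turn gave differences of 2.03 to 2.45. The size in FPKM rests on how fragments were assigned to the 12 annotated transcripts of Nfe2l1, which are 354 to 4654 bases long; no other annotated gene shares an exonic base with it. Levels of single transcripts were not analysed here. In cultures sequenced in bulk, fewer cells of a type and less RNA per cell cannot be told apart.

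The step between low values gives the read depth behind each level. An FPKM of 1 stood for a mean depth of 5.50 and 6.16 reads per base in the knockdown libraries and of 5.87 and 5.85 in the controls. On that scale the Nfe2l1 values stood for depths of 71.2 and 108.9 reads per base in knockdown and 13.4 and 15.0 in control. Those of Bach2, the lowest gene listed above 0, stood for 0.969 and 0.709 in knockdown and 0.960 and 0.454 in control. The step was read from rows with 1 exon and 1 transcript. Nfe2l1 has 12 annotated transcripts and Bach2 has 7, so these depths are approximate and were not measured on the genes themselves.

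**Figure D1:**
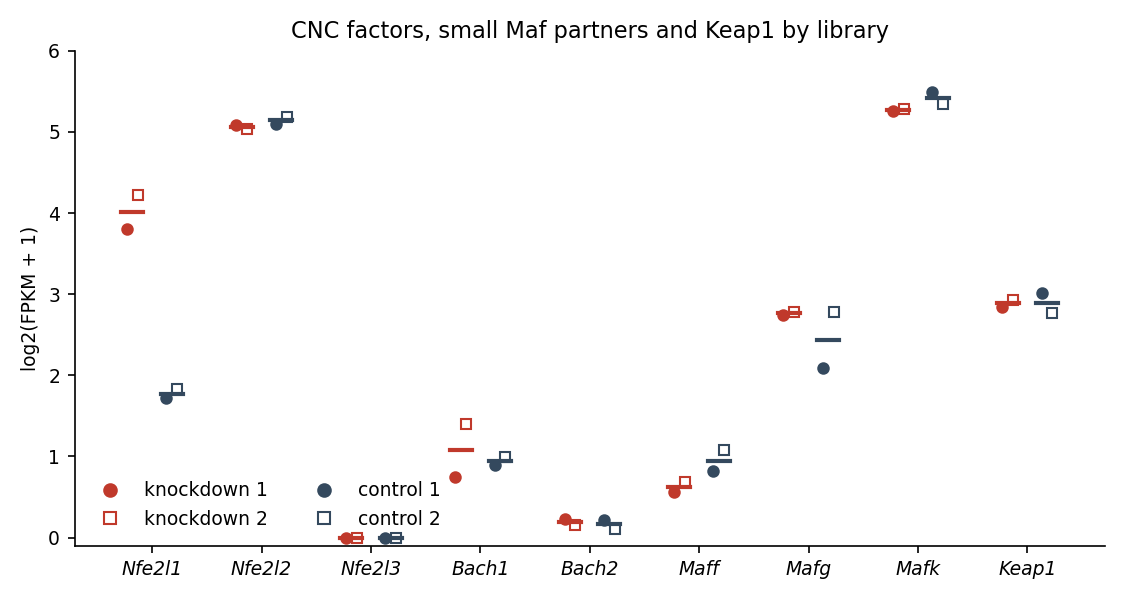
Level of each of the 9 genes on the log2(FPKM + 1) axis in the 2 knockdown libraries (red, left) and the 2 control libraries (dark, right); short bars are group means of the log2 values. Nfe2l1 stands at 13.0 and 17.7 FPKM in knockdown against 2.28 and 2.56 FPKM in control, Mafk and Nfe2l2 are the most abundant in every library, and Nfe2l3 is listed at 0 throughout.

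Nfe2l2, the CNC factor of oxidative stress (ENSMUSG00000015839; 75675513 to 75704641 on the minus strand of chromosome 2), had 33.0 and 31.9 FPKM in knockdown and 33.3 and 35.3 FPKM in control. The knockdown libraries lay just below the controls, by less than the distance between the control libraries. Its difference was -0.08 on the log2 scale, with a 95% interval of -0.35 to 0.19, and was -0.04 and -0.12 without control replicates 2 and 1 in turn. Among the 3 NFE2L genes, Nfe2l2 exceeded Nfe2l1 2.55 and 1.80 times in the knockdown libraries and 14.6 and 13.8 times in the controls, in FPKM, which is per length. Nfe2l1 therefore made up 28.2% and 35.7% of their summed FPKM in knockdown and 6.41% and 6.77% in control. The sum itself was 45.9 and 49.6 FPKM in knockdown and 35.6 and 37.8 FPKM in control.

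Nfe2l3 (chromosome 6, 51432670 to 51458768, plus strand), a CNC factor that is made at the endoplasmic reticulum like NFE2L1, was listed at 0 in all 4 libraries. With no counts in the table, a limit on its level was not worked out here.

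The repressors were low. Bach1, the heme-regulated repressor (ENSMUSG00000025612; chromosome 16, 87698945 to 87733346, plus strand), had 0.680 and 1.64 FPKM in knockdown and 0.866 and 0.983 FPKM in control. The knockdown libraries lay on either side of the controls. Its difference was 0.13 (95% interval -0.57 to 0.83), and it was -0.20 without knockdown replicate 2 and 0.46 without knockdown replicate 1, so its direction rests on 1 library. Bach2, known for its role in B and T lymphocytes (chromosome 4, 32238804 to 32586108, plus strand), had 0.176 and 0.115 FPKM in knockdown and 0.163 and 0.0776 FPKM in control, and the groups overlapped. The 3 NFE2L genes together exceeded both Bach genes 53.6 and 28.2 times in knockdown and 34.6 and 35.7 times in control.

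Mafk was the leading small Maf (ENSMUSG00000018143; chromosome 5, 139791513 to 139802653, plus strand). It had 37.3 and 38.0 FPKM in knockdown and 44.1 and 39.4 FPKM in control. Both knockdown libraries lay below both controls, and control replicate 1 was the highest. The difference was -0.14 (95% interval -0.42 to 0.13; limma adjusted p 0.816), and it was -0.07 and -0.22 without control replicates 1 and 2. Its last exons share 169 bases with Tmem184a on the other strand, and no strand setting is given in the sources used here; with Tmem184a added the difference was -0.09.

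Mafg (ENSMUSG00000051510; 120625117 to 120633600 on the minus strand of chromosome 11), the other well expressed small Maf, had 5.72 and 5.88 FPKM in knockdown and 3.25 and 5.89 FPKM in control. Control replicate 1 stood apart below the other 3 libraries, which were close to each other. The difference of 0.33 (95% interval -0.32 to 0.97) was -0.02 without control replicate 1 and 0.68 without control replicate 2. Mafg shares 124 exonic bases with Sirt7.

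Maff, a small Maf known to be inducible by stress and cytokines (ENSMUSG00000042622; chromosome 15, 79346621 to 79359076, plus strand), had 0.479 and 0.611 FPKM in knockdown and 0.759 and 1.11 FPKM in control. The groups did not overlap, but the gene lay under the filter of a mean of 1 FPKM and was not tested. Mafk took 85.7% and 85.4% of the summed FPKM of the small Mafs in knockdown, and 91.7% and 84.9% in control. That sum was 0.947 and 0.897 times the NFE2L sum in the knockdown libraries and 1.35 and 1.23 times in the controls, so small Maf transcripts outnumbered NFE2L transcripts, per length, in the controls and not in knockdown. Since this ratio holds Nfe2l1, it carries the value that chose the set.

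Keap1, the substrate adaptor that targets NFE2L2 for degradation (ENSMUSG00000003308; 21229730 to 21239361 on the minus strand of chromosome 9), had 6.18 and 6.62 FPKM in knockdown and 7.11 and 5.79 FPKM in control. The knockdown values fell between the controls, and the difference was -0.0048 (95% interval -0.45 to 0.44). Its sign changed when either knockdown replicate 1 or control replicate 1 was left out, with 0.04 and 0.12. It shares 510 exonic bases with the antisense gene Gm16754, which had 0.355 and 0.265 FPKM in knockdown and 0.125 and 0.04995 FPKM in control. Nfe2l2 exceeded Keap1 5.34 and 4.82 times in knockdown and 4.69 and 6.10 times in control.

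Of the 9 genes, 6 passed the filter and were tested. For 1 of them, Nfe2l1, the knockdown pair lay wholly above the control pair, as it did for 22.1% of all rows tested. For 2, Nfe2l2 and Mafk, it lay wholly below, as for 16.3% of all rows. Apart from Nfe2l1, the 5 tested genes had limma adjusted p-values of 0.816 to 0.997, and their 95% intervals reach from -0.57 to 0.97, with the widest for Bach1 and Mafg.

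The order of levels was Mafk, Nfe2l2, Nfe2l1, Keap1, Mafg in both knockdown libraries. In the controls Nfe2l1 came 5th, below Keap1 and Mafg. Mafk stood above Nfe2l2 in each library, and every Mafk value lay above every Nfe2l2 value. Keap1 and Mafg did not differ beyond their spread in control, where they overlapped. Bach1 and Maff also overlapped in control. Nfe2l1 in knockdown lay above every value of Keap1 and Mafg and below every value of Nfe2l2.

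**Figure D2:**
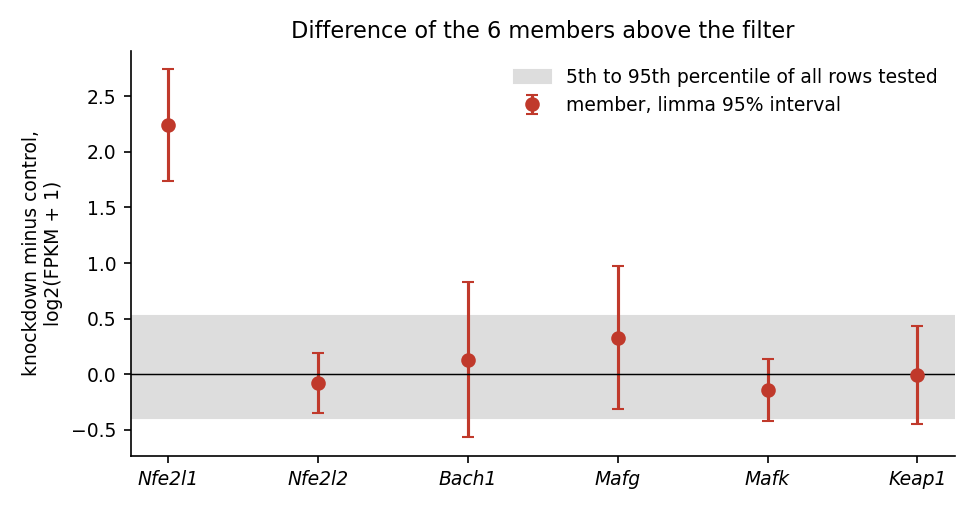
Difference between groups, knockdown minus control on the log2(FPKM + 1) axis, for the 6 genes above the filter, with 95% intervals from limma; the grey band spans the 5th to the 95th percentile of all 10900 rows, -0.40 to 0.52. Nfe2l1, whose value chose the set, stands at 2.24, and the intervals of the other 5 genes all include 0.

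Muscle lineage markers were present, while Pax7, the defining factor of satellite cells, was near the filter. Of 10 satellite cell and myoblast markers 9 passed the filter, and the exception was Pax7, with 1.40 and 0.625 FPKM in knockdown and 1.02 and 0.859 FPKM in control. Of 25 markers of endothelial, blood, fibro-adipogenic, pericyte and Schwann cells 3 passed, Tek, Notch3 and Ncam1. Ncam1, taken from the Schwann list, was high, with 156 and 142 FPKM in knockdown and 137 and 141 FPKM in control. Of the 25, 6 were listed at 0 throughout, Kdr, Ptprc, Adgre1, Itgam, Kcnj8 and S100b, and none of these was a fibro-adipogenic marker. The rest had values above 0 in at least 1 library but lay under the filter. The 10 myoblast markers summed to 5413 and 4929 FPKM in knockdown and to 6462 and 6121 FPKM in control, and the leading one, Myog, had 3406 and 2793 FPKM in knockdown against 4196 and 3931 FPKM in control. Among the 9 tested, 3 differences were positive and 6 negative. The knockdown pair lay wholly above in 11.1% of them and below in 33.3%, beside 22.1% and 16.3% of all rows. Vcam1 was the 1 wholly above, with 46.3 and 53.7 FPKM in knockdown and 42.4 and 44.0 FPKM in control. Myog is a factor of differentiating myoblasts, and Myf5, found in satellite cells and proliferating myoblasts, had 6.11 and 7.31 FPKM in knockdown and 8.20 and 7.63 FPKM in control. The part of the marker differences in the values of the CNC genes was not tested. In column totals, share of mitochondrial transcripts and depth the libraries were close, with totals of 317223 to 322496 FPKM and relative depths of 1 to 1.12.

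The genes on which these factors act were then read as lists, by counts and medians. NFE2L1 is known for raising proteasome genes. All 40 listed proteasome subunits and assembly factors were tested, and 0 passed in either direction by limma. At an unadjusted p under 0.05 there were also 0, where 7.08% of all rows tested, 4.39% higher and 2.70% lower, had such a p. Their differences ranged from -0.27 to 0.34, with 21 positive and 19 negative, and the median was 0.01 beside 0.03 over all rows. Both knockdown libraries lay above both controls in 15.0% of them and below in 27.5%, where 22.1% and 16.3% of all rows did so. Summed over the list, FPKM was 5169 and 5058 in knockdown and 5164 and 5113 in control. The median was between -0.02 and 0.02 in all leave-one-out fits.

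The proteasome genes with the lowest p pointed both ways. Psmd8, a lid subunit, had 146 and 155 FPKM in knockdown and 130 and 132 FPKM in control, a difference of 0.19. Psmd14, the deubiquitinase of the lid, had 130 and 123 FPKM in knockdown and 117 and 105 FPKM in control. Psmg2, an assembly chaperone, had 52.8 and 66.0 FPKM in knockdown and 75.8 and 67.7 FPKM in control, and Psme4, an activator cap, had a difference of 0.34, which was 0.19 without either knockdown replicate 1 or control replicate 2. Their limma adjusted p-values were 0.698 to 0.763. On the log2(FPKM + 1) scale, the Nfe2l1 difference of 2.24, which chose the set, stood beside a median of 0.01 over the proteasome list. A link between them was not tested.

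Genes that process or degrade the NFE2L1 protein were 14, all tested, with a median of -0.03 (-0.04 to -0.01 when 1 library was left out). By limma 0 passed, and at an unadjusted p under 0.05 there was 1 higher and 1 lower of the 14, beside 4.39% and 2.70% of all rows. Sel1l, the adaptor of the ER-associated degradation ligase, had 24.0 and 15.6 FPKM in knockdown and 10.6 and 10.2 FPKM in control (difference 0.84, adjusted p 0.600). Ube2a, a ubiquitin-conjugating enzyme, had 18.6 and 18.5 FPKM in knockdown and 27.7 and 32.5 FPKM in control (difference -0.67, adjusted p 0.523). For both genes the groups did not overlap, but they were named for the lowest p of the list. The knockdown pair lay wholly above in 21.4% of the list and below in 35.7%, beside 22.1% and 16.3% of all rows. Sel1l was 0.55 without knockdown replicate 1, the library in which it was highest.

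The enzymes that release active NFE2L1 were chosen for their role. Ddi2, the protease that cleaves it, had 3.11 and 2.89 FPKM in knockdown and 3.16 and 3.14 FPKM in control. Ngly1, which removes its sugars, had 12.4 and 10.1 FPKM in knockdown and 13.3 and 15.5 FPKM in control, a difference of -0.33 (limma adjusted p 0.717), which was -0.20 without knockdown replicate 2 and ranged to -0.47 over the fits that left out 1 library.

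Genes of the KEAP1-CUL3 ligase and of NFE2L2 or BACH1 turnover were 16, of which 13 were tested. Again 0 passed by limma, and 0 had an unadjusted p under 0.05, beside 7.08% of all rows. The median was 0.03, and it was 0.08 and 0.07 without control replicates 1 and 2 and -0.0036 without knockdown replicate 1. Cul3, the scaffold that KEAP1 binds, had 6.58 and 8.43 FPKM in knockdown and 6.09 and 4.76 FPKM in control (difference 0.40, adjusted p 0.717), and the difference was 0.25 without either knockdown replicate 2 or control replicate 2. Fbxw11, a paralogue of beta-TrCP, had 33.0 and 32.8 FPKM in knockdown and 25.8 and 31.1 FPKM in control. In both the knockdown libraries lay above the controls, but they were named for the lowest p of the list. The knockdown pair lay wholly above in 23.1% of the genes tested and below in 0%, beside 22.1% and 16.3% of all rows.

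NFE2L2 target genes, which make glutathione, NADPH and detoxifying enzymes, were 30, of which 24 were tested and 0 passed by limma. At an unadjusted p under 0.05 there were 4 higher and 2 lower of the 24, beside 4.39% and 2.70% of all rows. The median was 0.11 beside 0.03 over all rows, with 17 positive and 7 negative. Both knockdown libraries lay above both controls in 29.2% and below in 8.33%, against the 22.1% and 16.3% of all rows. This list depends on 1 library, since its median was -0.01 without knockdown replicate 2 and 0.25 without knockdown replicate 1.

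Nqo1, the quinone reductase used as a marker of NFE2L2 activity, had 8.89 and 6.98 FPKM in knockdown and 3.01 and 5.60 FPKM in control (difference 0.79, adjusted p 0.661); the difference was 0.43 and 1.15 without control replicates 1 and 2. Gclm, the regulatory subunit of the first enzyme of glutathione synthesis, had 8.68 and 6.84 FPKM in knockdown and 5.39 and 4.66 FPKM in control. Its catalytic partner Gclc had 4.37 and 3.53 FPKM in knockdown and 4.32 and 4.54 FPKM in control. Gclm libraries did not overlap between the groups and those of Gclc did. Hmox1, the heme oxygenase that BACH1 represses, ran the other way, with 49.9 and 55.6 FPKM in knockdown and 66.2 and 65.0 FPKM in control (difference -0.31, adjusted p 0.649).

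Ugdh, which makes UDP-glucuronate, had 25.6 and 26.1 FPKM in knockdown and 17.1 and 20.2 FPKM in control, the lowest p of the list with an adjusted value of 0.625 by limma. Txnrd1, thioredoxin reductase, had overlapping groups and a difference of 0.15; leaving out knockdown replicate 1 gave 0.30, and leaving out knockdown replicate 2 gave 0.0012. Srxn1, sulfiredoxin, varied within groups, with 3.87 and 7.92 FPKM in knockdown and 3.52 and 6.59 FPKM in control. Slc7a11, the cystine transporter, lay under the filter, with 0.504 and 0.319 FPKM in knockdown and 0.198 and 0.279 FPKM in control.

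Heme and iron genes, some of them under BACH1, were 18 and all tested. By limma 0 passed, with 1 higher and 1 lower of the 18 at an unadjusted p under 0.05, beside 4.39% and 2.70% of all rows, and the median was -0.02. Abcb6, a porphyrin transporter, had 7.56 and 8.84 FPKM in knockdown and 16.3 and 16.0 FPKM in control (difference -0.90, adjusted p 0.377). Tfrc, the transferrin receptor, had 18.8 and 16.2 FPKM in knockdown and 10.4 and 10.1 FPKM in control (difference 0.71, adjusted p 0.523). For both the groups stood clear of each other, but they were named for the lowest p of the list. The knockdown pair lay wholly above in 16.7% of the list and below in 16.7%, beside 22.1% and 16.3% of all rows. The list median was 0.03 without knockdown replicate 1, -0.05 without knockdown replicate 2 and -0.09 with quantile normalization.

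Maf, a large Maf factor with an activation domain, passed the filter, with 3.01 and 1.55 FPKM in knockdown and 2.03 and 1.65 FPKM in control. Its difference of 0.17 was -0.15 without knockdown replicate 1 and 0.50 without knockdown replicate 2. The CNC gene Nfe2 and the large Maf gene Mafa had at most 0.273 FPKM in any library, and Nrl was listed at 0.

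**Figure D3:**
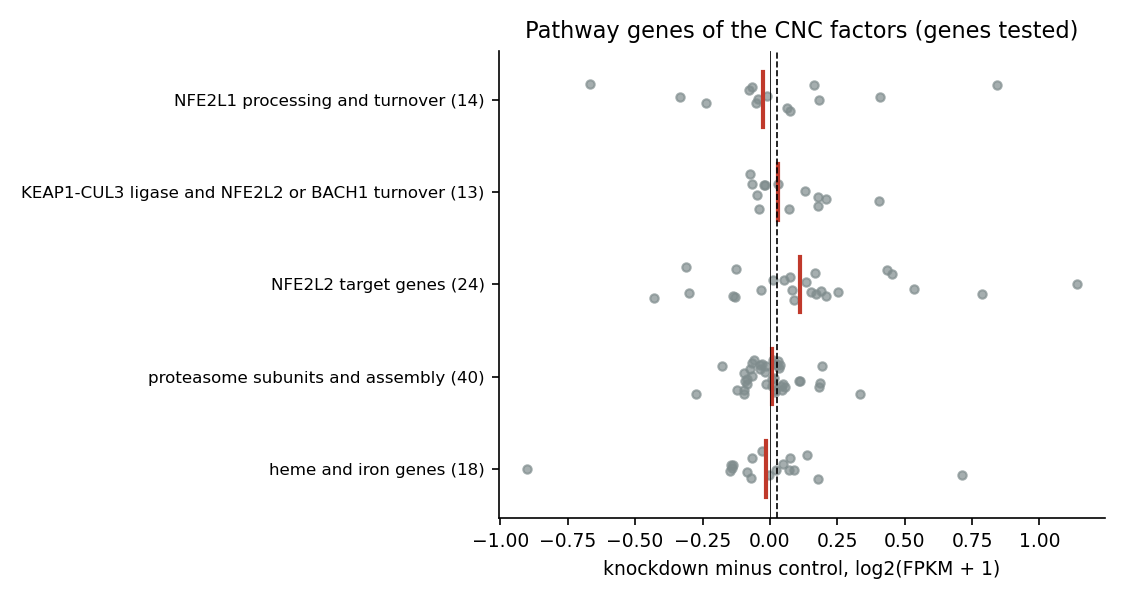
Each grey point is a gene of 1 of 5 pathway lists (number tested in brackets), placed by its difference, knockdown minus control, in log2(FPKM + 1); red bars are list medians and the dashed line is the median of all 10900 rows, 0.03. The 40 proteasome genes lie between -0.27 and 0.34, and the medians of the 5 lists lie between -0.03 and 0.11.

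Among 6372 other rows with a mean of at least 5 FPKM, the profiles most like that of Nfe2l1 were those with the smallest Euclidean distance between log2(FPKM + 1) values over the 4 libraries, each gene centred on its mean. The nearest was Zfp568, a zinc finger gene, at a distance of 0.487, where Nfe2l1 itself spans 2.51 between its extreme libraries. It had 11.8 and 11.4 FPKM in knockdown and 1.09 and 2.24 FPKM in control. Pttg1ip, whose product binds securin, followed at 0.584, with 78.7 and 82.8 FPKM in knockdown and 11.3 and 10.9 FPKM in control; it was the 1 row that limma called higher (adjusted p 0.00285, difference 2.76).

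Clu, an extracellular chaperone, was next at 0.764, with 14.9 and 16.4 FPKM in knockdown and 4.59 and 5.17 FPKM in control. Knop1, with 8.95 and 11.1 FPKM in knockdown and 4.17 and 4.60 FPKM in control, and Tmem184b, with 8.39 and 15.6 FPKM in knockdown and 4.20 and 5.89 FPKM in control, were already farther, at 1.21 and 1.23. Knop1 and Tmem184b shared with Nfe2l1 the higher value in knockdown replicate 2 and had smaller differences. With 4 libraries in 2 groups, such likeness is mostly that of a gene's difference between the groups.

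**Figure D4:**
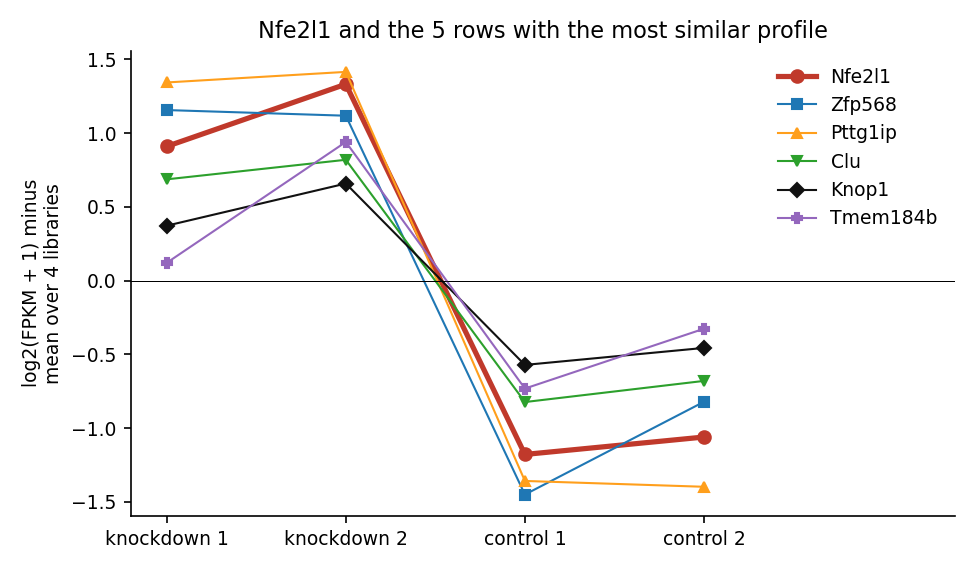
Log2(FPKM + 1) of Nfe2l1 (thick red) and of the 5 rows with the most similar profile, each minus its own mean, in knockdown replicates 1 and 2 and control replicates 1 and 2; lines only join the points of a gene. Zfp568 and Pttg1ip, at distances of 0.487 and 0.584, run closest to Nfe2l1, and Tmem184b, at 1.23, is the farthest of the 5.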

How the data were processed

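Polyadenylated RNA was measured in 4 libraries. The kits were SMART-Seq v4 for cDNA and Ovation Ultralow for libraries, read in pairs of 150 nt on an Illumina NextSeq, per the labels' protocols. StringTie 1.3.3, HISAT2 2.1.0, Trimmomatic 0.36, SAMtools 1.3, bcl2fastq 2.19 and mm10 appear in the submitters' processing notes, without roles. The table deposited by the authors holds 1 FPKM value per gene and library, a unit read from the values; the sources used here give neither annotation nor strand setting. No whole counts were recovered for multi-transcript genes, so no count model was used.

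The 10900 rows with a mean of at least 1 FPKM were tested with limma 3.58.1 (R 4.3.3) on log2(FPKM + 1), with a mean-variance trend, two-sided, with Benjamini-Hochberg adjustment and a threshold of 0.05. Read depth per base came from rows with 1 exon and 1 transcript, where 83.6% to 84.6% of low products of FPKM and length fell within 0.1 of a whole step (chance 20.0%). Coordinates are from GENCODE M21 on GRCm38, in which 54409 identifiers were found, and start-site sequences are from RefSeq, which matched all 9 genes. Python 3.11.15 and pandas 2.3.3 were used. Only the limma fit was run on simulated log2 values, without the filter and the pseudocount, and its outcome is not given here.

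The genes and lists were chosen with earlier results of these data known. The rule for named genes took the 9 genes, 7 classical NFE2L2 targets, the 2 or 4 members of each list with the lowest p, and the 5 profiles nearest to Nfe2l1; Ddi2 and Ngly1 were added for their role. A listed gene is not reported here. Alternatives were a replicate block, another pseudocount, other filters, 2 scalings, limma without the trend, leaving out each library, and summing rows that share at least 50 exonic bases.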

Additional observations from a re-analysis of the deposited data

How the results depend on the processing

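The values of Nfe2l1 chose the set, so its refits describe it and do not test it. Nfe2l1 kept its direction in all 11 alternatives, with differences of 2.03 to 2.60 and limma adjusted p-values of 0.0426 to 0.727. It stood just outside the threshold (adjusted p 0.0511) and inside it with a pseudocount of 0.1 (2.60, adjusted p 0.0426) or median ratio scaling (2.22, adjusted p 0.0489), so its call depends on these settings. The replicate block left its difference at 2.24 (adjusted p 0.118); the replicate numbers did not pair the libraries, with a correlation of deviations of -0.0209, and the block gave 1 row higher and 2 lower. Beside 1 row higher and 5 lower, the counts were 2 higher with a pseudocount of 0.1 or median ratio scaling, 0 and 0 without a filter (1508 rows at an unadjusted p under 0.05), 3 lower without the trend, and 2 to 4 higher and 2 to 11 lower when 1 library was left out, the lone sample being assumed to vary like the other group.

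Signs changed for Keap1 (-0.13 to 0.12 when 1 library was left out, 0.019 summed with Gm16754), Bach1 (-0.20 to 0.46), Mafg (-0.020 to 0.68), Maf (-0.15 to 0.50) and Srxn1 (-0.27 to 0.61), the last 4 also over the fits that left out 1 library; the cause was not tested. Nfe2l2 and Mafk stayed negative in every alternative. With 2 libraries a group, 95% intervals over all rows tested reached a median of 0.484 to either side on the log2 scale. This limits what could be seen in the lists. Most proteasome genes had narrower intervals, such as -0.23 to 0.17 for Psmc3, while Psme3 had -0.59 to 0.96.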

Other observations

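The 3 coding rows nearest to Nfe2l1 on chromosome 11 with a mean of at least 1 FPKM, chosen after its values were seen, had group means within 1.5-fold of each other, where Nfe2l1 differed 6.33-fold. Cbx1, a heterochromatin protein 8774 bases away, had 15.3 and 20.02 FPKM in knockdown and 14.3 and 16.3 FPKM in control. Copz2, a coat protein subunit 19902 bases away on the other side, had 26.5 and 19.9 FPKM in knockdown and 22.3 and 19.4 FPKM in control, and its groups overlapped. Snx11, a sorting nexin 39855 bases away, lay lower in knockdown, with 7.12 and 7.88 FPKM, than in control, with 9.72 and 9.19 FPKM.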
